A study of Saccharomyces cerevisiae with 12 samples.

Results

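ATG41 (YPL250C, also called ICY2) and ICY1 (YMR195W) are paralogous genes of budding yeast, and the DNA upstream of each was followed here as a landing zone for calling cards. The regions were found by the genes that flank them in the deposited list of intergenic regions: the region upstream of ATG41 lies between ATG41 and RPL36B, and the region upstream of ICY1 lies between RPL36A and ICY1. They are 2 of the 4532 regions listed. The ATG41 region was 981 bp long, at chr16:74719-75699, and the ICY1 region was 2125 bp long, at chr13:651909-654033. Coordinates are those of the deposited files, and no source used here states their genome build. Each region lies downstream of its ribosomal neighbour, RPL36B or RPL36A, and upstream of the paralog. Both were chosen by their shares of insertions in these same libraries, so the shares and positions are described here without a test.

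Both genes go back to the whole-genome duplication of the yeast lineage, which also left a copy of RPL36, a gene for a protein of the large ribosomal subunit, beside each of them. Atg41 is needed for autophagy, the delivery of cytoplasm to the vacuole during starvation, and interacts with the membrane protein Atg9. ICY1 is poorly characterised and is known to be induced when amino acids are scarce. Cbf1 is a basic helix-loop-helix leucine zipper (bHLH-ZIP) factor that binds the E-box CACGTG at centromeres and at genes of methionine synthesis. In this class of factor the basic region touches DNA, while the helix-loop-helix and the zipper join a pair of subunits.

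In calling cards, a factor fused to Sir4 draws the retrotransposon Ty5 to the chromatin it binds, and the genomic insertions left behind are mapped. There were 12 groups with 1 library in each, every one grown from a single clone, and all strains lacked SIR4. All cells spent 3 days on galactose, which switches on the Ty5 plasmid, then 2 days on rich medium and 3 days on plates with 5-FOA and no histidine, where cells with the HIS3 marker of Ty5 can grow. In cells that also lacked CBF1, the plasmid carried the bHLH domain of the mammalian circadian factor NPAS2 joined to the Cbf1 zipper (NPAS2 bHLH + Cbf1 ZIP), that domain alone (NPAS2 bHLH), the Cbf1 bHLH-ZIP with the basic region of Tye7, the Cbf1 bHLH without the zipper, the Cbf1 bHLH-ZIP, or Cbf1. Tye7, a bHLH activator of glycolytic genes, was driven by the TEF1 promoter in cells without GCR2 (TEF1p-Tye7 gcr2D) or with GCR2 (TEF1p-Tye7), and was also expressed as Tye7 in cells without TYE7. Gcr1 and Gcr2, activators of glycolytic genes, and Cst6, a basic leucine zipper (bZIP) factor of the ATF/CREB family, were expressed in cells that lacked only SIR4. The strain was BY4742 for the form with the Tye7 basic region and BY4741 for all other libraries.

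Libraries held between 3341 insertions (NPAS2 bHLH) and 54385 (Cst6), of which 61.8% to 78.1% lay in listed intergenic regions. A share is the percentage of a library's intergenic insertions that fall in a region. Its interval is the exact (Clopper-Pearson) 95% interval, which covers counting error only, and with 1 library per group no difference below has a replicate check. The insertions of a library are listed in 1 to 6 sorted blocks that no label explains. Such a block is termed a run below; runs show variation within a library, and none was treated as a replicate. The background set deposited by the authors put 0.193% of its intergenic insertions in the ATG41 region for 9 libraries and 0.253% in the set used for Gcr1, Gcr2 and Cst6. The ICY1 region took 0.238% and 0.214% of the same sets.

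The ATG41 region had its 4 highest shares, 1.41% to 19.5%, in the libraries whose factor carried the zipper of Cbf1. With NPAS2 bHLH + Cbf1 ZIP it held 557 of 2859 intergenic insertions, a share of 19.5% (18.0% to 21.0%), and ranked 1 of all 4532 regions. With Cbf1 bHLH-ZIP it held 371 insertions, a share of 4.62% (4.17% to 5.10%), and again ranked 1. With Cbf1 it held 685 insertions, a share of 2.52% (2.34% to 2.72%), at rank 5. With the Cbf1 bHLH-ZIP that carries the Tye7 basic region it held 102 insertions, a share of 1.41% (1.15% to 1.71%), at rank 10. These 4 shares did not overlap in their intervals, and they stood 101, 23.9, 13.1 and 7.30 times above the background share in the order given. The order depended on how insertions were counted: with positions within 5 bp merged the share was 1.85% in NPAS2 bHLH + Cbf1 ZIP, 0.997% with the Tye7 basic region, 0.728% in Cbf1 bHLH-ZIP and 0.192% in Cbf1, which then stood below libraries without the zipper such as TEF1p-Tye7 gcr2D (0.420%). With insertions of at least 5 reads the share was 33.4% in NPAS2 bHLH + Cbf1 ZIP, 1.71% with the Tye7 basic region and 3.03% in Cbf1. With each position counted once the share was 16.8% in NPAS2 bHLH + Cbf1 ZIP, 1.51% with the Tye7 basic region, 3.92% in Cbf1 bHLH-ZIP and 1.68% in Cbf1.

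In the 8 other libraries the ATG41 region took less than 1% of the insertions. TEF1p-Tye7 gcr2D gave 48 insertions and 0.632% (0.467% to 0.838%), and Cbf1 bHLH gave 119 insertions and 0.463% (0.384% to 0.554%). Cst6 gave 153 insertions and 0.405% (0.343% to 0.474%), and NPAS2 bHLH gave 9 insertions and 0.373% (0.171% to 0.706%). These 4 libraries overlap in the order of shares, each with the next. TEF1p-Tye7 followed with 17 insertions and 0.223% (0.130% to 0.357%), then Gcr2 with 48 insertions and 0.189%, Tye7 with 25 insertions and 0.156%, and Gcr1 with 26 insertions and 0.156%. From TEF1p-Tye7 downward no neighbour differed from the next beyond its interval, and in Gcr1 the share was below background, at 0.618 times (0.389 to 0.945).

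A region was called bound where the authors' Poisson p-value, adjusted over its library's regions by the Benjamini-Hochberg method, fell under 0.01 with 5 or more insertions present. The ATG41 region was bound in 7 of 12 libraries. Among all regions, the share bound was 1.04% in NPAS2 bHLH + Cbf1 ZIP, 2.05% in Cbf1 bHLH-ZIP, 3.91% in Cbf1, 1.68% with the Tye7 basic region, 0.971% in TEF1p-Tye7 gcr2D, 2.18% in Cbf1 bHLH and 3.57% in Cst6, which are the libraries where ATG41 was bound. It was not bound in the other 5, where the share of all regions bound was 0.0221% for NPAS2 bHLH, 0.552% for TEF1p-Tye7, 0.375% for Tye7, 1.41% for Gcr1 and 1.74% for Gcr2. Since the region was chosen for these counts, nothing is read from the comparison with all regions.

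ICY1 showed no such rise. Its region held between 4 and 159 insertions, and its share stayed between 0.111% and 0.421% in all 12 libraries. The highest share was in Cst6, with 159 insertions and 0.421% (0.358% to 0.491%), which was 1.97 times background (1.54 to 2.53). Cst6 was also the only library in which the ICY1 region was bound, 1 of 12, by the same call and against the same shares of all regions.

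Below Cst6 the ICY1 shares descended in small steps. NPAS2 bHLH gave 8 insertions and 0.331%, Cbf1 bHLH gave 76 and 0.296%, Cbf1 gave 77 and 0.284% (0.224% to 0.354%), and Gcr2 gave 64 and 0.252%. TEF1p-Tye7 gcr2D gave 18 insertions and 0.237%, Cbf1 bHLH-ZIP gave 16 and 0.199%, Tye7 gave 25 and 0.156%, and TEF1p-Tye7 gave 11 and 0.145%. The lowest were NPAS2 bHLH + Cbf1 ZIP with 4 insertions and 0.140% (0.0381% to 0.358%), Gcr1 with 20 and 0.120%, and the form with the Tye7 basic region with 8 and 0.111% (0.0478% to 0.218%). No neighbours in this order differed beyond their intervals. The share was below background in Gcr1, at 0.562 times (0.331 to 0.908), and in the form with the Tye7 basic region, at 0.464 times (0.197 to 0.937), and the intervals of the other 9 libraries below Cst6 took in a ratio of 1.

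**Figure D1:**
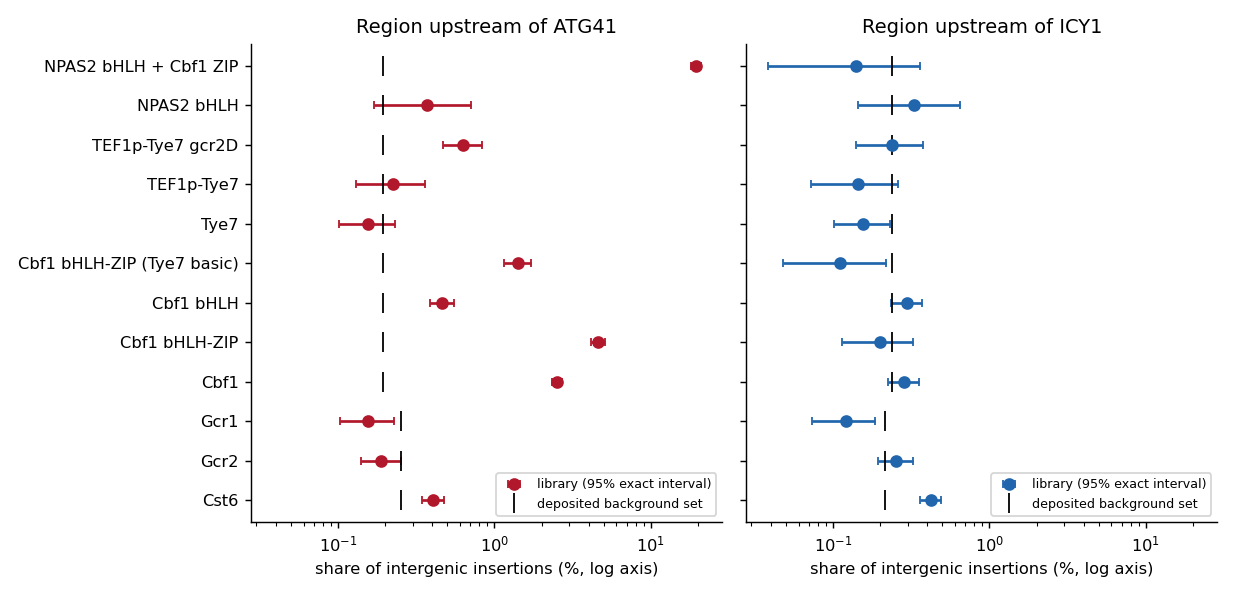
Share of intergenic insertions (percent, log axis) in the region upstream of ATG41 (left) and of ICY1 (right) for the 12 libraries; points are libraries, bars are exact 95% intervals for counting error, and black ticks are the deposited background sets. The 4 libraries with a Cbf1 zipper reach 1.41% to 19.5% at ATG41, whereas all 12 libraries lie between 0.111% and 0.421% at ICY1.

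The contrast between the paralogs within a library was read per kilobase, because the ICY1 region is the longer one. With NPAS2 bHLH + Cbf1 ZIP the ATG41 region held 302 times as many insertions per kilobase as the ICY1 region (117 to 1111), an interval set by the 4 insertions at ICY1. The ratio was 50.2 (30.5 to 88.8) with Cbf1 bHLH-ZIP, 27.6 (13.5 to 65.7) with the Tye7 basic region and 19.3 (15.2 to 24.7) with Cbf1. All 4 stood above the ratio of the background set of these libraries, which was 1.75 (1.38 to 2.23).

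The same ratio was smaller where the zipper of Cbf1 was absent. It was 5.78 (3.30 to 10.6) in TEF1p-Tye7 gcr2D, 3.39 (2.52 to 4.58) in Cbf1 bHLH, 3.35 (1.48 to 7.91) in TEF1p-Tye7, 2.44 (0.835 to 7.26) in NPAS2 bHLH and 2.17 (1.19 to 3.93) in Tye7. Of these 5, TEF1p-Tye7 gcr2D and Cbf1 bHLH had intervals above that of background. Gcr1 gave 2.82 (1.51 to 5.32), Cst6 gave 2.08 (1.66 to 2.62) and Gcr2 gave 1.62 (1.09 to 2.40), against 2.56 (1.98 to 3.31) in their background set. Cst6 thus placed more insertions in both regions than its background did, with a ratio between them whose interval overlaps that of background.

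The runs show how far these levels vary inside a library. At ATG41 the 4 runs of Cbf1 ranged from 2.16% to 3.83%, and the 2 runs of Cbf1 bHLH-ZIP stood at 3.32% and 6.48%. The 2 runs with the Tye7 basic region gave 1.23% and 1.61%, and the 3 runs of Cbf1 bHLH gave 0.400% to 0.479%. Runs of Cbf1 bHLH-ZIP and Cbf1 therefore overlapped, while those of the other pairs among these 4 libraries did not. The 3 runs of TEF1p-Tye7 gcr2D lay between 0.417% and 0.817%, the 3 of TEF1p-Tye7 between 0.112% and 0.435%, the 6 of Tye7 between 0.108% and 0.172%, and the 3 of Cst6 between 0.268% and 0.472%.

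At ICY1 the runs of Cst6, from 0.311% to 0.494%, overlapped those of Cbf1 (0.147% to 0.455%), TEF1p-Tye7 gcr2D (0.145% to 0.353%), Gcr2 (0.148% to 0.316%) and Cbf1 bHLH (0.182% to 0.313%). They lay above all runs of Tye7 (0.0538% to 0.253%), Cbf1 bHLH-ZIP (0.169% to 0.242%), TEF1p-Tye7 (0.0749% to 0.227%), Gcr1 (0.0651% to 0.157%) and the form with the Tye7 basic region (0.0897% to 0.129%). Both NPAS2 libraries consisted of 1 run, so their values carry no spread of this kind.

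**Figure D2:**
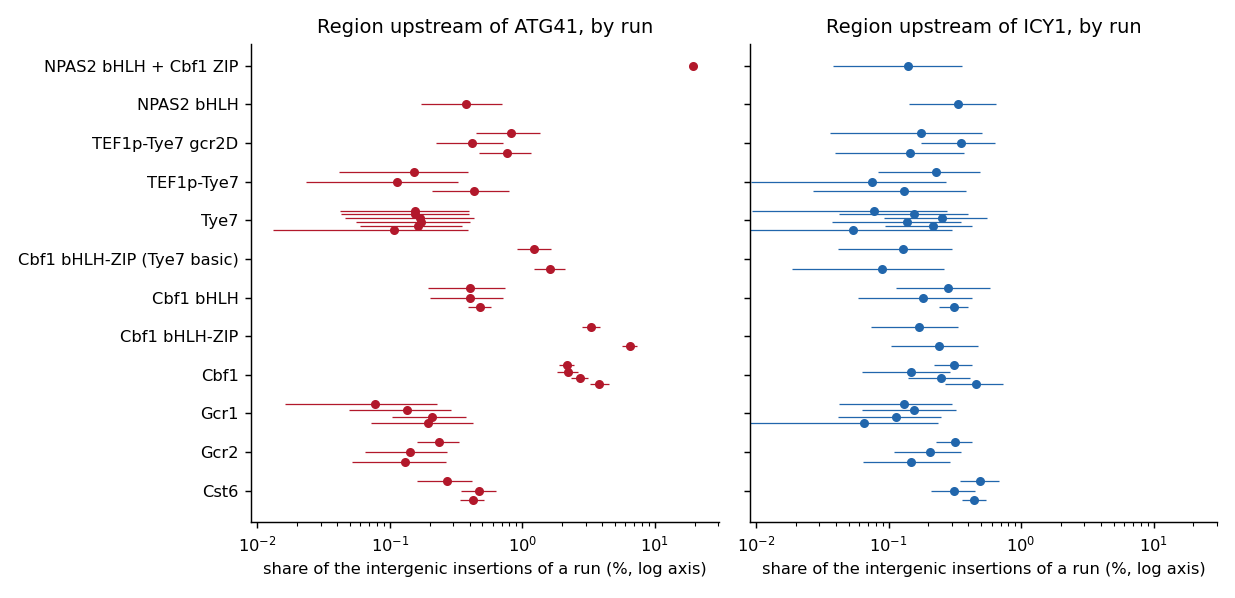
Share of a run's intergenic insertions (percent, log axis) in the ATG41 region (left) and the ICY1 region (right); each point is 1 run, bars are exact 95% intervals, and some bars run past the left edge. Runs with the Tye7 basic region (1.23% and 1.61%) lie below those of Cbf1 bHLH-ZIP (3.32% and 6.48%) at ATG41, and at ICY1 the runs of Cst6 (0.311% to 0.494%) overlap those of Cbf1 (0.147% to 0.455%).

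The labels imply 7 pairs of libraries, and each ratio below is the share in the first library over that in the second, with its exact 95% interval. A region was past the fold when the ratio, with 1 insertion added to each count, was at least 2 or at most 0.5, and only regions with 10 or more insertions over both libraries were tested. The first pair asks how another E-box factor, Tye7, uses the region that Cbf1 fills. At ATG41 the share was 0.156% in Tye7 and 2.52% in Cbf1, a ratio of 0.0619 (0.0398 to 0.0922), or 16.2-fold lower in Tye7 (10.8 to 25.1). All 6 runs of Tye7 lay below all 4 of Cbf1. At ICY1 the share was 0.156% in Tye7 and 0.284% in Cbf1, a ratio of 0.551 (0.336 to 0.875) that did not pass the fold, and the runs overlapped. Of 759 regions tested, 43.1% were past the fold higher in Tye7 and 22.9% lower, with ATG41 among those lower. CBF1 was deleted in the Cbf1 library and present in the Tye7 library, and TYE7 the reverse, so the factor and the deletions cannot be told apart.

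The ATG41 region took a larger share in the form cut down to the bHLH-ZIP than in Cbf1, by less than 2-fold. Its share was 4.62% in Cbf1 bHLH-ZIP and 2.52% in Cbf1, a ratio of 1.83 (1.61 to 2.08) that was short of the fold and within the overlap of the runs. ICY1 took 0.199% in Cbf1 bHLH-ZIP and 0.284% in Cbf1, a ratio of 0.703 (0.383 to 1.21). Of 428 regions tested, 6.54% were past the fold higher and 13.3% lower, and neither member was among them. That ATG41 missed the fold rested on the setting: its ratio was 2.10 when the 10 fullest regions of either library were left out of the denominator, 2.33 with each position counted once, 3.80 with positions within 5 bp merged and 2.57 without run 1 of Cbf1 bHLH-ZIP.

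The form without the zipper used the ATG41 region far less. The share was 0.463% in Cbf1 bHLH and 4.62% in Cbf1 bHLH-ZIP, a ratio of 0.100 (0.0808 to 0.124), or 9.98-fold lower without the zipper (8.09 to 12.4), and the runs did not overlap. The region stayed 2.40 times above background in Cbf1 bHLH (1.85 to 3.10), where it ranked 4. It ranked 5 in NPAS2 bHLH and 7 in TEF1p-Tye7 gcr2D, so a high rank did not need a high share. ICY1 held a share of 0.296% in Cbf1 bHLH and 0.199% in Cbf1 bHLH-ZIP, a ratio of 1.48 (0.858 to 2.73). Of 807 regions tested, 10.7% were past the fold lower, as ATG41 was, and 50.8% higher. Over all regions tested the median log2 ratio was 1.02, against -3.31 at ATG41 and 0.50 at ICY1. With the 10 fullest regions left out of the denominator the ratio at ATG41 was 0.0647, and that at ICY1 was 0.958.

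The form with the Tye7 basic region also had a lower share at ATG41, by a smaller factor than the form without the zipper, and the difference between these factors was not tested. The share was 1.41% with the Tye7 basic region and 4.62% in Cbf1 bHLH-ZIP, a ratio of 0.305 (0.243 to 0.381), or 3.28-fold lower (2.63 to 4.12), and the runs did not overlap. At ICY1 the share was 0.111% with the Tye7 basic region and 0.199% in Cbf1 bHLH-ZIP, a ratio of 0.555 (0.206 to 1.37) on 8 and 16 insertions, which became 1.51 when only insertions of at least 5 reads were counted. Of 214 regions tested, 25.7% were past the fold lower, with ATG41 among them, and 19.2% higher. The basic region and the strain, BY4742 or BY4741, cannot be told apart in this pair.

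Addition of the Cbf1 zipper to NPAS2 bHLH gave the largest ratio of the 7 pairs at ATG41. The share was 19.5% in NPAS2 bHLH + Cbf1 ZIP and 0.373% in NPAS2 bHLH, a ratio of 52.3 (27.3 to 115), which was 4.81 with positions within 5 bp merged. At ICY1 the share was 0.140% with the zipper and 0.331% without it, on 4 and 8 insertions, a ratio of 0.422 (0.0931 to 1.58) that passed the fold while its interval took in 1. Of 62 regions tested, 67.7% were past the fold higher, as ATG41 was, and 11.3% lower, as ICY1 was. The median log2 ratio of all regions tested was 2.00, against 5.56 at ATG41 and -1.09 at ICY1. The ratio depended on the denominator: without the 10 fullest regions of either library it was 113 at ATG41 and 0.909 at ICY1.

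Tye7 from the TEF1 promoter gave 0.223% at ATG41, against 0.156% for Tye7, a ratio of 1.43 (0.725 to 2.76). The ICY1 region took 0.145% in TEF1p-Tye7 and 0.156% in Tye7, a ratio of 0.925 (0.411 to 1.95). Neither member passed the fold, which 8.1% of 457 regions did upward and 18.6% downward. A deletion of TYE7 is given above for Tye7 and not for TEF1p-Tye7, so promoter and TYE7 genotype cannot be told apart here. At ATG41 the ratio was 0.844 without run 3 of TEF1p-Tye7, so its direction rested on that run. It was 2.06 without the 10 fullest regions in the denominator, in the same direction as with all regions.

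Without GCR2, whose product works with Gcr1 at glycolytic genes, the ATG41 region passed the fold. Its share was 0.632% in TEF1p-Tye7 gcr2D and 0.223% in TEF1p-Tye7, a ratio of 2.83 (1.60 to 5.25), but the runs overlapped. Leaving out run 3 of TEF1p-Tye7, which held 10 of its 17 insertions, raised the ratio to 4.80, and leaving the 10 fullest regions out of the denominator lowered it to 1.96. At ICY1 the share was 0.237% in TEF1p-Tye7 gcr2D and 0.145% in TEF1p-Tye7, a ratio of 1.64 (0.734 to 3.84). Of 270 regions tested, 37% were past the fold higher, with ATG41 among them, and 8.52% lower.

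A pair of further comparisons was chosen after the values were seen. Between the factors with a Cbf1 zipper, the ATG41 share was 19.5% in NPAS2 bHLH + Cbf1 ZIP and 4.62% in Cbf1 bHLH-ZIP, a ratio of 4.22 (3.69 to 4.82), in a pair where 27.7% of 141 regions were past the fold higher and 48.9% lower. The ICY1 ratio in that pair was 0.702 (0.171 to 2.18). Between the forms without a zipper, the ATG41 share was 0.373% in NPAS2 bHLH and 0.463% in Cbf1 bHLH, a ratio of 0.804 (0.359 to 1.58), and the ICY1 ratio was 1.12 (0.467 to 2.32). There 28.9% of 783 regions were past the fold higher and 5.75% lower, and neither member was.

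The ATG41 ratios were the more sensitive to how insertions were counted. With positions within 5 bp of each other merged, which joins most of a densely filled region into a few clusters, the ATG41 ratio was 0.891 for Tye7 over Cbf1 and 1.37 for the Tye7 basic region over Cbf1 bHLH-ZIP, so the first call was lost and the direction of the other turned. In both pairs merging took more insertions from the fuller library, so these merged ratios cannot rank the libraries. With each position counted once the same ratios were 0.0952 and 0.384.

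**Figure D3:**
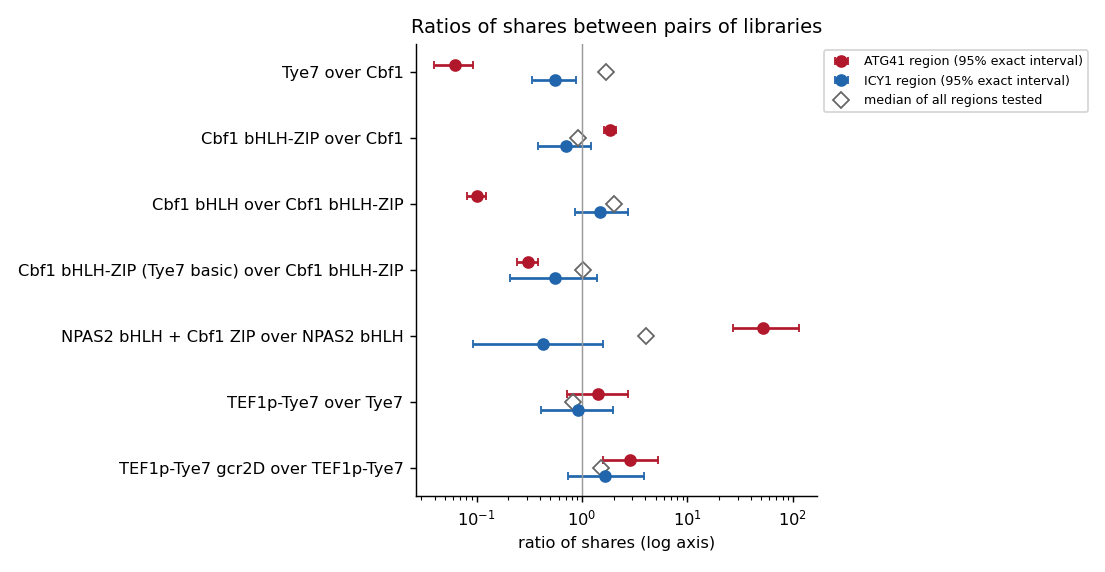
Ratio of shares (log axis) for the 7 pairs, first-named library over second, at ATG41 (red) and ICY1 (blue) with exact 95% intervals; open diamonds are the median of all regions tested in the pair, and the grey line marks a ratio of 1. ATG41 spans 0.0619 to 52.3, while ICY1 stays between 0.422 and 1.64.

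Insertions filled the ATG41 region broadly rather than at a single position. In NPAS2 bHLH + Cbf1 ZIP they stood at 433 distinct positions, 44.1% of the bases of the region, in Cbf1 bHLH-ZIP at 251 (25.6%) and in Cbf1 at 325 (33.1%). Within a run the fullest position of each library was listed 2 times, whatever the depth of the library. This may be a limit of the lists, which was not tested, so the count cannot show whether a single position stood out. Of the 433 positions used in NPAS2 bHLH + Cbf1 ZIP, 261 were also used in Cbf1 (60.3% of its own and 80.3% of those of Cbf1), and 215 were used in Cbf1 bHLH-ZIP (49.7% and 85.7%). From 76% (Gcr1) to 94.5% (Tye7 basic region) of each library's positions lay within these 433, so such overlap was not particular to forms of Cbf1. In these 3 libraries the reads per insertion were no lower in the ATG41 region than over the library: the median was 8 at ATG41 against 3 over the library for NPAS2 bHLH + Cbf1 ZIP, 9 against 5 for Cbf1 bHLH-ZIP and 26 against 10 for Cbf1.

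Distances were measured from the edge of the region beside ATG41. The median distance was 432 bp in NPAS2 bHLH + Cbf1 ZIP (quartiles 314 and 589), 401.5 bp with the Tye7 basic region, 445 bp in Cbf1 bHLH, 478 bp in Cbf1 bHLH-ZIP and 446 bp in Cbf1 (333 and 579). In all 5 of these libraries the fullest 50 bp lay at 300 to 350 bp, with 11.7% to 20.6% of the insertions. The forms of Cbf1 thinned just beyond it: the 25 bp at 325 to 350, 350 to 375 and 375 to 400 bp held 40, 5 and 28 insertions in Cbf1 bHLH-ZIP, and 79, 4 and 54 in Cbf1. In NPAS2 bHLH + Cbf1 ZIP the same bins held 39, 21 and 39, so the dip was shallower there. In the libraries without any part of Cbf1 the bin at 350 to 375 bp held 0 or 1 insertions, among few nearby. Sparse use of that bin was thus not particular to the forms of Cbf1, and positions of background insertions were not analysed.

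Cst6 and TEF1p-Tye7 gcr2D used the far part of the region. Windows for this reading were chosen after the positions were seen. Between 500 and 700 bp lay 108 of 153 insertions in Cst6 (70.6%), 34 of 48 in TEF1p-Tye7 gcr2D (70.8%) and 16 of 25 in Tye7 (64%). The same window held 182 of 557 in NPAS2 bHLH + Cbf1 ZIP (32.7%), 31 of 102 with the Tye7 basic region (30.4%), 31 of 119 in Cbf1 bHLH (26.1%), 116 of 371 in Cbf1 bHLH-ZIP (31.3%) and 232 of 685 in Cbf1 (33.9%).

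Between 400 and 500 bp Cst6 had 7 insertions (4.58%) and TEF1p-Tye7 gcr2D had 0 of 48, whereas Cbf1 had 123 (18.0%). The median distance was 560 bp in Cst6 (quartiles 483 and 639), 555 bp in TEF1p-Tye7 gcr2D, 316 bp in TEF1p-Tye7 and 546 bp in Tye7. TEF1p-Tye7 had 9 of its 17 insertions between 200 and 400 bp (52.9%) and 6 between 500 and 700 bp (35.3%), with 5 insertions each at 300 to 350 and at 650 to 700 bp. The exact 95% interval of its median, 312 to 653 bp, takes in the medians of the other libraries with Tye7. The fullest 50 bp lay at 600 to 650 bp in Cst6, with 32 insertions, and at 650 to 700 bp in TEF1p-Tye7 gcr2D and Tye7, with 12 and 6. Of the 110 positions of Cst6, 89 were also used by Cbf1, 80.9% of those of Cst6 and 27.4% of those of Cbf1. Across the libraries 60% (Gcr1) to 88.2% (TEF1p-Tye7) of the positions lay within the Cbf1 set. The overlap was thus not particular to Cst6.

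**Figure D4:**
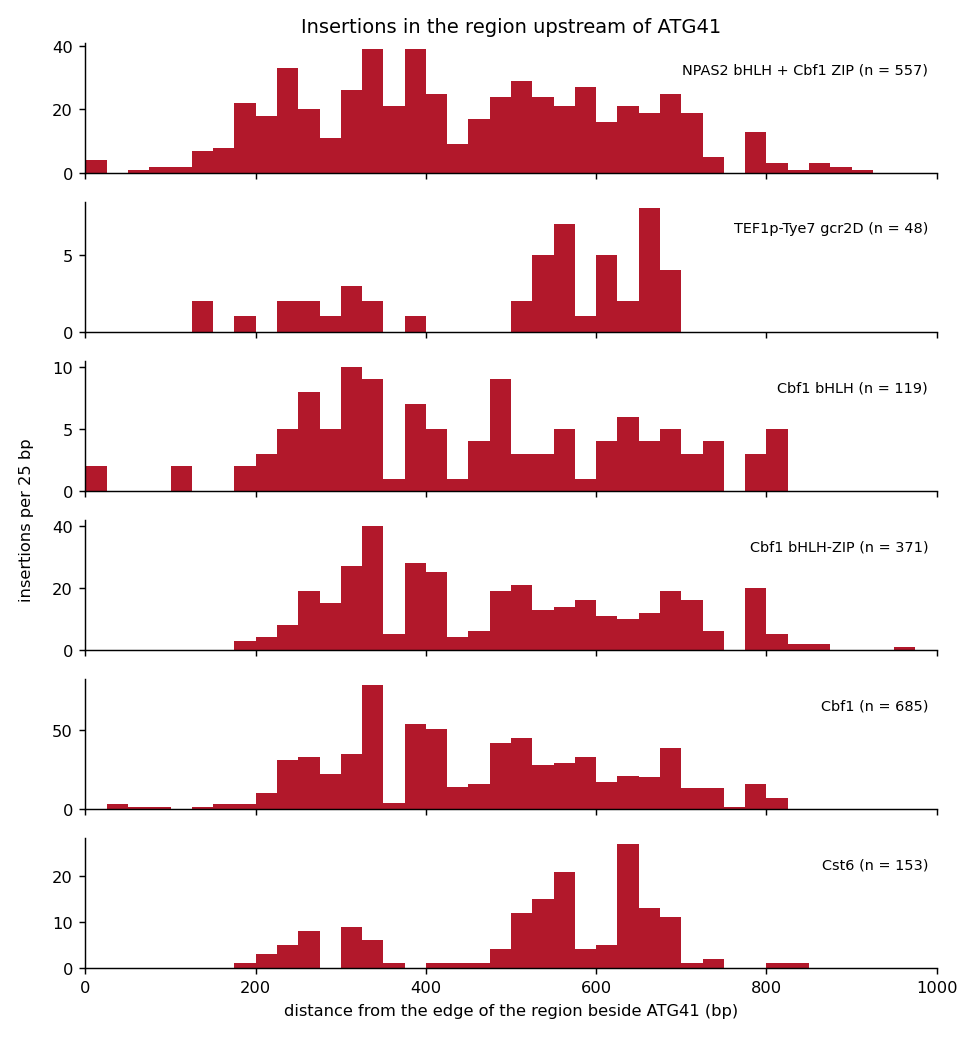
Insertions per 25 bp against distance from the region's edge beside ATG41 (bp) in the 6 libraries named in the panels, each with its own vertical scale and its number of insertions. TEF1p-Tye7 gcr2D and Cst6 crowd between 500 and 700 bp (70.8% and 70.6% of insertions), whereas the forms with parts of Cbf1 are fullest at 300 to 350 bp.

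At ICY1 the insertions were few in most libraries, and an uneven spread was not confined to Cbf1 and Cst6. Between 600 and 1100 bp from the edge beside ICY1, which is 500 of the 2125 bp, lay 61 of 77 insertions in Cbf1 (79.2%), 13 of 16 in Cbf1 bHLH-ZIP (81.2%) and 126 of 159 in Cst6 (79.2%). The same window held 38 of 76 in Cbf1 bHLH (50%), 32 of 64 in Gcr2 (50%) and 8 of 25 in Tye7 (32%). In the other 6 libraries, with 4 to 20 insertions each, it held 54.5% to 75%. This window, too, was chosen after the positions were seen.

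Inside that window the libraries differed in where they were fullest. Cbf1 was fullest at 850 to 900 bp, with 15 insertions (19.5%), and its median distance was 868 bp (quartiles 750 and 993). Cst6 was fullest at 700 to 750 bp, with 40 insertions (25.2%), and its median distance was 714 bp (629.5 and 872). Cbf1 bHLH, which had 76 insertions in the region, had no bin of 50 bp with more than 6 insertions. The ICY1 share of Cbf1 as a whole was 1.19 times background (0.894 to 1.57), and the positions of the background insertions were not analysed here.

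**Figure D5:**
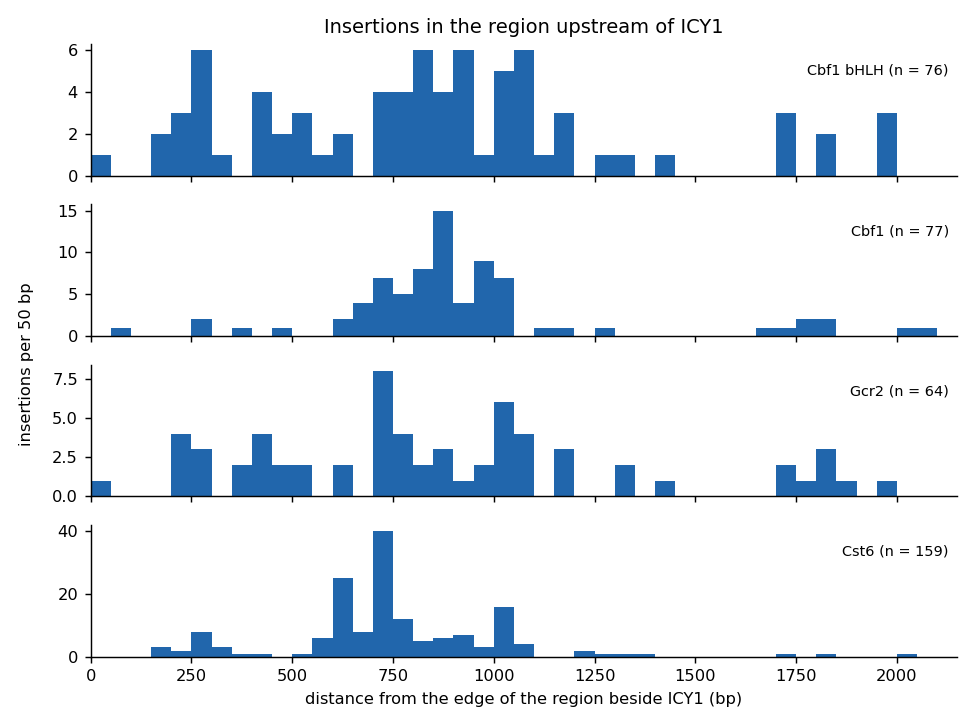
Insertions per 50 bp against distance from the region's edge beside ICY1 (bp) in the 4 libraries with the most insertions there, each with its own vertical scale. Cbf1 and Cst6 hold 79.2% of their insertions between 600 and 1100 bp, and Cbf1 bHLH and Gcr2 hold 50% there.

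The neighbourhood of the ATG41 region was nearly empty. Of the 3 listed regions on either side, HFI1-VIK1, VIK1-YAH1, YAH1-ATG41, RPL36B-GYP5, GYP5-GAL4 and GAL4-RBD2, only YAH1-ATG41 was bound in any library. It lies downstream of ATG41, held 15 insertions in NPAS2 bHLH + Cbf1 ZIP (0.525%) and 0 to 5 in the other 11 libraries, and was bound in 1. The others held at most 8 insertions in any library. The stretch between both listed regions that holds the body of ATG41, 409 bp long, took 47 insertions in NPAS2 bHLH + Cbf1 ZIP and 0 to 3 elsewhere. Within RPL36B there were 0 or 1 insertions.

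Insertions beyond the ATG41 region in NPAS2 bHLH + Cbf1 ZIP fell away within 1000 bp on the side of the gene and were almost absent on the other. On the side of ATG41 the first 500 bp held 54 insertions and the next 500 bp held 8, while on the side of RPL36B those stretches held 0 and 1. Within 10 kb the side of ATG41 held 89 insertions and that of RPL36B held 7, so further insertions lay beyond 1000 bp. In Cbf1 the first 500 bp on the side of ATG41 held 1 insertion and those on the side of RPL36B held 0.

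Around ICY1 the regions SPG5-GYL1, GYL1-MRPL24, MRPL24-RPL36A and VTI1-CIK1 held at most 11 insertions and were bound in 0 libraries. ICY1-VTI1, downstream of ICY1, was bound in 1 library, Cbf1 bHLH, with 23 insertions. CIK1-CLN1, upstream of the G1 cyclin gene CLN1, was bound in 3 libraries, with 151 insertions in Cst6, 57 in Gcr2 and 36 in Gcr1. The body of ICY1 held 0 to 2 insertions, and that of RPL36A held 0 or 1.

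The regions whose profile over the 12 libraries was most like that of a member were ranked by Pearson r of log2 shares, with 1 insertion added to each count, among 354 others with at least 100 insertions in all. These libraries share factors, strains and depth, and r is given as a description over n = 12 libraries. For ATG41 they were SYG1-MET30 (0.943), LPD1-SMX2 (0.902), NDI1-NGL3 (0.897), NAG1-GSC2 (0.895) and CIS3-FAR1 (0.891). MET30 encodes a subunit of a ubiquitin ligase that restrains sulfur genes, and LPD1 encodes the lipoamide dehydrogenase of mitochondrial complexes. CIS3-FAR1 held 9.20% and SYG1-MET30 held 4.20% of the insertions of NPAS2 bHLH + Cbf1 ZIP, against 1.30% and 0.811% in Cbf1. By Spearman rho, 1 of these 5 was kept.

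ICY1 stood 133rd in likeness to ATG41, with r of -0.0363, so the paralogs did not share a profile. Among the regions most like ICY1 were RPS4A-HMS2 (0.776), AAC3-IST2 (0.774), FCY1-ROX1 (0.737) and RPL15B-PKR1 (0.731). ROX1 encodes a repressor of hypoxic genes, and AAC3 a mitochondrial ADP/ATP carrier. Each of these 4 regions had its highest share in Cst6, from 0.691% at RPL15B-PKR1 to 2.20% at AAC3-IST2, as ICY1 did. By Spearman rho, 3 of the 5 regions most like ICY1 were kept.

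Other genes of autophagy were bound in few libraries. Of 35 genes on a list of the core and selective machinery, 29 had a listed upstream region, 29 regions in all. In Cbf1, where 3.91% of all regions were bound, 2 of the 29 were, ATG31-SES1 (0.129%) and ATG20-TRM3 (0.0700%), ATG31 being part of the scaffold that starts an autophagosome and ATG20 a sorting nexin. In Cbf1 bHLH, with 2.18% of all regions bound, 2 of the 29 were, ATG20-TRM3 and ATG11-MAK3 (each 0.0273%), ATG11 being an adaptor of selective autophagy. With the Tye7 basic region 1 of the 29 was bound, ATG31-SES1 (0.180%), against 1.68% of all regions. In Gcr2 1 of the 29 was bound, NMD3-ATG7 (0.0591%), against 1.74% of all regions, ATG7 being the activating enzyme of autophagic conjugation, and none of the list was bound in the other 8 libraries, NPAS2 bHLH + Cbf1 ZIP included.

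Few of these regions held the 10 insertions needed for a ratio. For Tye7 over Cbf1 3 could be tested, of which 2 were past the fold lower and 0 higher, beside 22.9% and 43.1% of all 759 regions tested, with a median log2 ratio of -2.09, against 0.76 over all regions tested. For Cbf1 bHLH over Cbf1 bHLH-ZIP 5 could be tested, of which 1 was past the fold higher and 0 lower, beside 50.8% and 10.7% of all 807 regions tested, with a median of 0.78, against 1.02 over all regions. In the other 5 pairs 0 to 3 could be tested and 0 were past the fold. The median share of the 29 regions was 0.00368% in Cbf1, which is 1 insertion, and 0% in NPAS2 bHLH + Cbf1 ZIP. In each of these libraries the median share of all regions was the same, so these medians do not set the list apart.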

How the data were processed

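The members and gene list were chosen with earlier results of these data known, and the labels gave each library its group. Reads had been aligned with Novoalign, per the submitters' processing notes; the genome build and the filters are not given in the sources used here. Each library had a list of insertions, with supporting read counts per the file headers, and a table of 4532 intergenic regions in which the authors deposited counts of insertions for the library and for a background set of 66271 intergenic insertions (53808 for Gcr1, Gcr2 and Cst6). The Poisson p-value and the hypergeometric p-value are deposited values of the authors. Insertions recounted from the lists equalled the deposited counts in every region.

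Shares, exact intervals (95%) and ratios conditional on the sum of both counts were computed with Python 3.11.15, numpy 2.4.6, pandas 2.3.3 and scipy 1.17.1, and the code was tested on simulated data. A count of 0 was read against a limit of 3 insertions. Insertions are not all independent events, so intervals cover counting error only. Gene symbols came from the RefSeq table of assembly R64, used for names only, which matched 4656 of 4657 identifiers. Regions named are the members, the 3 on either side of each, the 5 most alike and the bound regions of the autophagy list; 1 region among those most like ICY1 is not reported here. No sequence is shown, as none was used here. Alternatives were another set of insertions, region bounds, denominator, threshold, p-value and each run left out.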

Additional observations from a re-analysis of the deposited data

Results flagged for a closer look

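The stretch that holds the body of ATG41, 409 bp between the listed regions on either side of it, took 47 insertions in the NPAS2 bHLH + Cbf1 ZIP library, 1.02% of all its insertions (exact 95% interval 0.748% to 1.35%), and 0 to 3 in each of the other 11 libraries. Such insertions lie outside the listed regions and enter none of the shares. Of the 47, 29 lay within 200 bp of the upstream region, and their median was 3 reads, which is also the median of the library. This is a signal in data that the comparisons above do not use, and its source was not tested.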

How the results depend on the processing

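No paired analysis was possible because each group is 1 library, so any 2 groups share only 1 replicate number. The count of libraries bound, 7 for ATG41 and 1 for ICY1, was the same with an adjusted p under 0.0001, without a minimum of insertions and with the authors' hypergeometric p-value. Widening the regions by 200 bp and dividing by all insertions moved none of the 14 ratios beyond its interval. Merging positions within 5 bp moved most ratios at ATG41, because neighbouring positions in a full region join: 557 insertions became 22 in NPAS2 bHLH + Cbf1 ZIP, 371 became 25 in Cbf1 bHLH-ZIP and 685 became 20 in Cbf1. The ATG41 ratio was then 0.891 for Tye7 over Cbf1, 3.80 for Cbf1 bHLH-ZIP over Cbf1, 0.308 for Cbf1 bHLH over Cbf1 bHLH-ZIP and 4.81 for NPAS2 bHLH + Cbf1 ZIP over NPAS2 bHLH, and that with the Tye7 basic region over Cbf1 bHLH-ZIP reversed to 1.37; the ICY1 ratio of Cbf1 bHLH over Cbf1 bHLH-ZIP was 0.795. Counting each position once, a setting chosen after seeing the data, gave ATG41 ratios of 0.0952 for Tye7 over Cbf1, 2.33 for Cbf1 bHLH-ZIP over Cbf1 and 0.384 for the Tye7 basic region, and moved no other ratio beyond its interval. With insertions of at least 5 reads, the ATG41 ratio of Cbf1 bHLH over Cbf1 bHLH-ZIP was 0.0783 and the ICY1 ratio with the Tye7 basic region was 1.51. Without the 10 fullest regions in the denominator, the ATG41 ratio was 2.10 for Cbf1 bHLH-ZIP over Cbf1 and 0.0647 for Cbf1 bHLH over Cbf1 bHLH-ZIP; the cause was not tested.

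With each run left out in turn, the ATG41 ratios ranged from 0.0556 to 0.0675 for Tye7 over Cbf1, 1.32 to 2.57 for Cbf1 bHLH-ZIP over Cbf1, 0.0715 to 0.139 for Cbf1 bHLH over Cbf1 bHLH-ZIP, 0.218 to 0.424 for the Tye7 basic region, 0.844 to 1.81 for TEF1p-Tye7 over Tye7 and 2.23 to 4.80 for TEF1p-Tye7 gcr2D over TEF1p-Tye7. The ICY1 ratios ranged, in the same order, from 0.487 to 0.609, 0.597 to 0.853, 1.15 to 1.75, 0.450 to 0.653, 0.644 to 1.17 and 1.08 to 2.36. The NPAS2 libraries have 1 run each and give no such range. Depth limits ICY1 most, with 4 to 25 insertions in 8 libraries.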
